A study of Mus musculus with 6 samples.

Results

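The genes described here are 39 mouse genes of cell cycle entry, DNA replication and mitosis, taken from a fixed list of symbols. All 39 were matched to a row of the count table, which holds 49315 Ensembl gene identifiers, and 38 of them passed a filter on low counts that kept 14508 genes in all. Bub1, a spindle checkpoint kinase, was the member that did not pass. The members were read in the order of their roles: 6 G1 genes (the D and E cyclins and E2f1), 11 replication genes and 22 mitosis genes, with cyclin A2, Top2a and Mki67 placed in the last group.

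RNA sequencing was done on 3 hearts of Arrdc4 knockout mice, made with CRISPR-Cas9, and on 3 hearts of wild-type mice, all of the C57BL/6 background. Arrdc4 encodes an alpha-arrestin, an adaptor protein for ubiquitin ligases. Each heart gave 1 library. The sources used here do not give age, sex, litter or the number of knockout lines, and nothing says whether the samples of a genotype were prepared separately. Libraries held between 29974501 and 41036626 counts. Levels are given in CPM, counts divided by a library size scaled with TMM (a method that assumes most genes do not differ). A floor of 3 counts stood at 0.0700 to 0.103 CPM, and counting limits of this kind cover counting error only. The targeted gene followed the labels: Arrdc4 had 0.117, 0.0345 and 0.0524 CPM in knockout hearts 1 to 3, against 11, 8.17 and 8.39 CPM in wild-type hearts 1 to 3. Cardiomyocyte markers, 11 contractile and calcium-handling genes, summed to 65642, 66552 and 77947 CPM in the knockout hearts and 66109, 73099 and 68211 CPM in the wild-type hearts. Reads from 4 Y-linked genes were present in knockout heart 1 and wild-type hearts 1 and 2 (146 to 158 CPM) and low in the other 3 hearts (1.19 to 2.24 CPM), and Xist, which is read from the inactive X chromosome, was high in those 3 and near 0 in the first 3. Knockout heart 2 and wild-type heart 3 were closer to each other over all genes than to any heart of their own genotype, with a chi-square per degree of freedom of 7.66 against 26.6 or more for every other pair.

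As background, a cell that leaves rest makes D cyclins, which with Cdk4 and Cdk6 phosphorylate the retinoblastoma protein and free E2F factors. E2F factors and cyclin E then switch on the genes of DNA replication: the MCM helicase, the PCNA clamp and the enzymes that make deoxynucleotides. Cyclins A and B with Cdk1 drive mitosis, whose genes are read late in the cycle under the B-MYB and FOXM1 factors. Cardiomyocytes of the adult mouse seldom divide, and much of the cycling in an adult heart is that of its other cells. In RNA from whole hearts, more cells of a type and more RNA per cell cannot be told apart.

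Promoter sequences are shown first, since genes of the same phase are known to share short promoter elements. The RefSeq promoter table (GRCm38.p6) held 31 of the 39 members, each in a window of 250 bases before to 50 after the start. The cell cycle genes homology region, or CHR, was searched for as TTTGAA, the CCAAT box as CCAAT, and the E2F element as TTTCCCGC, TTTGGCGC, TTTCGCGC or TTTGCCGC, each on both strands. The E2F forms can overlap each other where one is read on each strand. The CHR letters were found in 13 of 18 mitosis genes (72.2%), 1 of 10 replication genes and 0 of 3 G1 genes, beside 20.2% of all 27025 genes of the table. A CCAAT box was found in 16 of 18 mitosis genes, 8 of 10 replication genes and 1 of 3 G1 genes, beside 41.1% of all genes. E2F letters were found in 4 of 10 replication genes, 1 of 18 mitosis genes and 0 of 3 G1 genes, beside 2.60% of all genes. Both CHR and CCAAT letters stood in 13 of 18 mitosis promoters, and in 7.97% of all promoters. These are matches of letters and show no binding.

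The 200 bases before the RefSeq start of 5 members follow, 5′ to 3′ on the strand of the gene, with every match to the CHR, CCAAT or E2F letters in capitals (on the other strand these read TTCAAA for CHR and ATTGG for CCAAT). Mki67, Top2a and Ccnb2 show the CHR and CCAAT letters found in most promoters of the mitosis group. A further CHR match of Ccnb2 begins at position 5 after the start and so lies outside the stretch printed. Mcm6 shows CCAAT letters and the E2F letters found in 4 of 10 replication genes. Birc5 is shown because no match was found in its window. The stretches lie at chr7:135716380-135716579 (minus strand), chr11:99024190-99024389 (minus), chr9:70421555-70421754 (minus), chr11:117849037-117849236 (plus) and chr1:128359706-128359905 (minus) of GRCm38.p6.
Mki67: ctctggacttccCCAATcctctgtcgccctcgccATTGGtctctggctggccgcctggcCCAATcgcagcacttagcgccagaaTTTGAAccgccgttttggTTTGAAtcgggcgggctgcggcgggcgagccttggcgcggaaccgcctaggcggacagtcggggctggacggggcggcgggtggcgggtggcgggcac
Top2a: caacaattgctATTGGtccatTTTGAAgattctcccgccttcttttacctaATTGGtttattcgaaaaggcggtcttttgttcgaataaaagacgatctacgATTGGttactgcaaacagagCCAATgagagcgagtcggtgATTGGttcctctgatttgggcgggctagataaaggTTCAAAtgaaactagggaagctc
Ccnb2: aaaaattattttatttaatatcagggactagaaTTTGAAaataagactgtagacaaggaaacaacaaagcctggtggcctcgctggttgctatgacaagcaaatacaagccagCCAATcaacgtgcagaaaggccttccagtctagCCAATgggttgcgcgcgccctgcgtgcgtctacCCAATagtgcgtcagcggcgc
Birc5: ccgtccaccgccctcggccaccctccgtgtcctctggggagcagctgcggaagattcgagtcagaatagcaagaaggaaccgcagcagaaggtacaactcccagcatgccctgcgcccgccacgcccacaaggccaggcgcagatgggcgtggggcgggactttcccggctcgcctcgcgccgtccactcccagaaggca
Mcm6: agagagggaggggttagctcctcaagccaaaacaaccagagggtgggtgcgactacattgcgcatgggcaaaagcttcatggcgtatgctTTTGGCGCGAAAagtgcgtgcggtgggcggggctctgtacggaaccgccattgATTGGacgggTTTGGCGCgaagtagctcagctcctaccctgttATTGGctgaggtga

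The comparison of knockout with wild-type hearts asks whether cell cycle transcripts differ when Arrdc4 is lost. Fitted values of 37 of the 38 tested members were higher in knockout hearts, and 1, that of Ccne1, was at -0.00041 on the log2 scale. The median log2 fold change, knockout over wild-type, was 1.26 over 21 mitosis genes, 0.35 over 11 replication genes and 0.10 over 6 G1 genes, beside 0.0092 over all genes tested. No member passed the test: 0 of 38 had an adjusted p under 0.05 in edgeR's quasi-likelihood test, where 0 of 14508 genes (0%) were called higher and 1, Arrdc4 itself (0.00689%), lower. The smallest adjusted p of a member was 1.0 in edgeR, and DESeq2 and limma-voom also called 0 members. At an unadjusted p under 0.05 edgeR held 6 members, all higher (Mcm7, Tk1, E2f1, Top2a, Aurkb and Birc5), beside 0.751% of all genes higher and 0.482% lower. The groups did not overlap for 3 members, Mcm7, Tk1 and Birc5, each higher in every knockout heart, beside 2.18% of all genes, and 0 members were lower in every knockout heart, beside 1.90%. Without knockout heart 1, 0 of 38 members had an unadjusted p under 0.05 and the mitosis median was 0.20. A fit with 1 heart fewer has less power, and leaving out a wild-type heart also lowered the count at an unadjusted p. For Mcm7, Tk1 and Birc5, knockout hearts 2 and 3 both lay above all 3 wild-type hearts, so the lack of overlap did not rest on knockout heart 1.

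The count at an unadjusted p moved with the tool and the filter. It was 18 of 39 with no filter on low counts, beside 1.16% of all genes, and 3 of 26 with a filter of 1 CPM in 3 samples, beside 0.505%. DESeq2 gave 11 of 39, beside 0.573% of all genes, and limma-voom 2 of 38, beside 0.648%. Leaving out wild-type heart 1, 2 or 3 in turn gave 3, 2 and 1 of 39 members, beside 0.364%, 0.782% and 0.628% of all genes. Where 39 members were tested, Bub1 was included, which the main filter had removed and which was highest in knockout heart 1. Bub1 was among the 18 with no filter, the 11 in DESeq2 and the 3 without wild-type heart 1. It was the only member counted without wild-type heart 3. With knockout heart 2 and wild-type heart 3, the pair that stood close together, both left out, 15 of 39 members had an unadjusted p under 0.05, beside 4.35% of all genes, and 0 were called at the adjusted threshold in edgeR, beside 0.00684% of all genes. In each of these settings every member past the unadjusted threshold was higher in knockout.

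**Figure D1:**
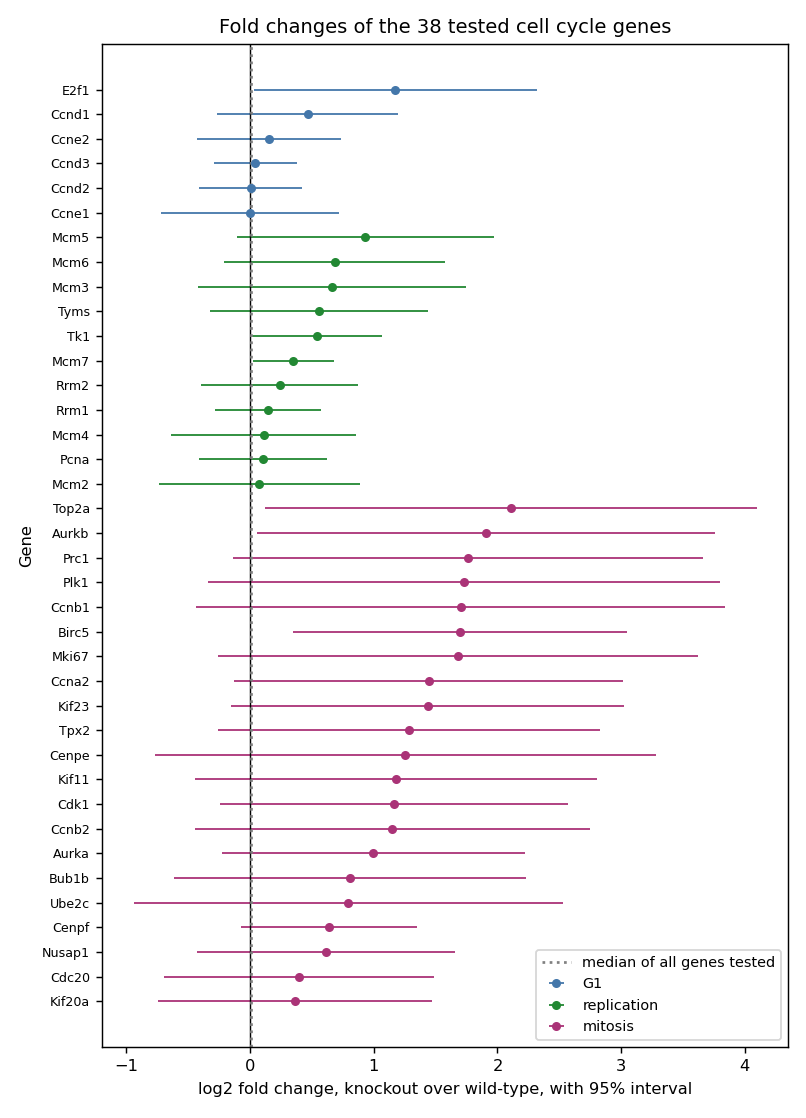
Log2 fold change of each tested member, knockout over wild-type, with its 95% interval from edgeR (x axis), for the G1, replication and mitosis genes down the page (y axis). The mitosis genes reach from 0.36 to 2.11 with standard errors of 0.30 to 0.91, the G1 genes from -0.00041 to 1.17 with standard errors of 0.14 to 0.49, and the replication genes from 0.075 to 0.93 with standard errors of 0.14 to 0.46. The dotted line is the median of all genes tested.

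Among the G1 genes the D cyclins were the abundant ones and did not separate the genotypes. Ccnd1 (cyclin D1, ENSMUSG00000070348, chromosome 7, 144929931 to 144939925 of GRCm38) had 90.5, 40.4 and 55.4 CPM in the knockout hearts, against 48, 52.9 and 33.9 CPM in the wild-type hearts. Knockout heart 1 was the highest and wild-type heart 3 the lowest, and the other 4 hearts lay between 40.4 and 55.4 CPM. Ccnd2, cyclin D2, had 108, 86.7 and 110.4 CPM in the knockout hearts, against 105, 117 and 83.4 CPM in the wild-type hearts, and Ccnd3, cyclin D3, had 47.6, 38.9 and 46.1 CPM in the knockout hearts, against 41.1, 47.4 and 40.3 CPM in the wild-type hearts. For both genes the knockout and wild-type hearts covered nearly the same range, and the log2 fold changes were 0.0042 (SE 0.18, 95% interval -0.41 to 0.42) for Ccnd2 and 0.042 (SE 0.14, 95% interval -0.29 to 0.38) for Ccnd3, so that a 2-fold difference lay outside both intervals. For Ccnd1 the log2 fold change was 0.47 (SE 0.31, 95% interval -0.26 to 1.20). Per kilobase of merged exons the mean level was 11.4 RPKM for Ccnd1, 10.8 RPKM for Ccnd2 and 4.97 RPKM for Ccnd3 over the 6 hearts.

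The E cyclins, partners of Cdk2 at the start of S phase, were low and flat. Ccne1 had 1.54, 0.896 and 1.41 CPM in the knockout hearts, against 1.30, 1.09 and 1.49 CPM in the wild-type hearts, and Ccne2 had 2.99, 4.0 and 3.48 CPM in the knockout hearts, against 2.59, 2.66 and 4.15 CPM in the wild-type hearts. Wild-type heart 3 and knockout heart 2 were the highest for Ccne2, while knockout heart 2 was the lowest for Ccne1, and both genes overlapped between genotypes with log2 fold changes of -0.00041 (SE 0.31) and 0.15 (SE 0.25). E2f1, the factor that switches on replication genes, had 2.22, 0.793 and 1.05 CPM in the knockout hearts, against 0.443, 0.905 and 0.448 CPM in the wild-type hearts. Its knockout heart 1 stood apart from the other 5 hearts, 1 wild-type heart lay above 1 knockout heart, and the log2 fold change was 1.17 (SE 0.49, 95% interval 0.031 to 2.32). The libraries held 95, 23 and 40 E2f1 reads in knockout hearts and 14, 34 and 15 in wild-type hearts.

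The 6 MCM genes encode the subunits of the replicative helicase, and their values differed from gene to gene. Mcm2 had 9.31, 4.45 and 8.14 CPM in the knockout hearts, against 7.44, 8.97 and 4.42 CPM in the wild-type hearts, and Mcm4 had 8.75, 4.65 and 7.65 CPM in the knockout hearts, against 6.42, 8.73 and 4.39 CPM in the wild-type hearts. For these genes wild-type heart 2 nearly equalled knockout heart 1, and the log2 fold changes were 0.075 (SE 0.35) and 0.11 (SE 0.32). Mcm3 had 8.19, 2.21 and 4.90 CPM in the knockout hearts, against 3.54, 3.99 and 2.18 CPM in the wild-type hearts. Mcm5 had 7.09, 1.90 and 4.29 CPM in the knockout hearts, against 2.31, 2.77 and 1.91 CPM in the wild-type hearts, and Mcm6 had 10.8, 3.51 and 6.34 CPM in the knockout hearts, against 4.53, 4.77 and 3.58 CPM in the wild-type hearts. In Mcm3, Mcm5 and Mcm6 knockout heart 1 was the highest, knockout heart 3 came next, and knockout heart 2 lay among the lowest hearts. The log2 fold changes were 0.66 (SE 0.46), 0.93 (SE 0.44) and 0.68 (SE 0.38). Mcm7 (ENSMUSG00000029730, chromosome 5, 138164583 to 138172422) had 11.5, 10.2 and 10.1 CPM in the knockout hearts, against 8.07, 8.65 and 8.27 CPM in the wild-type hearts. All 3 knockout hearts lay above all 3 wild-type hearts, by little, and the log2 fold change was 0.35 (SE 0.14, 95% interval 0.023 to 0.68), the narrowest interval of the replication group. Means were 10.6 ± 0.814 CPM in knockout hearts and 8.33 ± 0.298 CPM in wild-type hearts (SD, n = 3 each) for Mcm7. Its adjusted p was 1.0 in edgeR, and without knockout heart 1 its log2 fold change was 0.28.

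The clamp and the nucleotide enzymes did not share a pattern either. Pcna, the sliding clamp that holds DNA polymerase on the template and also serves in repair, had 31.2, 45.6 and 31.1 CPM in the knockout hearts, against 31.4, 27.6 and 41.4 CPM in the wild-type hearts. It was the member of the replication group that was highest in knockout heart 2 and wild-type heart 3, and at 14.5 RPKM it had the highest mean level per length of all 38 tested members. The large subunit of ribonucleotide reductase, Rrm1, had 20.1, 13.2 and 18.6 CPM in the knockout hearts, against 15.5, 16.3 and 15 CPM in the wild-type hearts. Its inducible small subunit, Rrm2, had 3.17, 2.21 and 1.83 CPM in the knockout hearts, against 2.12, 1.68 and 2.33 CPM in the wild-type hearts. Both genes overlapped between genotypes. Tyms, which makes thymidylate, had 2.31, 0.965 and 1.23 CPM in the knockout hearts, against 1.14, 1.15 and 0.806 CPM in the wild-type hearts. Tk1, the thymidine kinase of the salvage pathway (ENSMUSG00000025574, chromosome 11, 117815526 to 117826092), had 4.29, 3.62 and 2.75 CPM in the knockout hearts, against 2.53, 2.21 and 2.60 CPM in the wild-type hearts. All 3 knockout hearts lay above the wild-type hearts for Tk1, the nearest pair being 2.75 CPM in knockout heart 3 and 2.60 CPM in wild-type heart 3, and the log2 fold change was 0.54 (SE 0.22, 95% interval 0.015 to 1.06). The log2 fold changes of the others were 0.10 (SE 0.22) for Pcna, 0.15 (SE 0.18) for Rrm1, 0.24 (SE 0.27) for Rrm2 and 0.55 (SE 0.38) for Tyms.

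The mitosis genes other than Cenpf were highest in knockout heart 1 and reached at most 3.53 CPM, for Mki67, in the other hearts. Mki67, a protein of the surface of mitotic chromosomes and the usual marker of cycling cells (ENSMUSG00000031004, chromosome 7, 135689784 to 135716361), had 11.3, 1.17 and 3.53 CPM in the knockout hearts, against 1.80, 2.64 and 0.567 CPM in the wild-type hearts. Its reads numbered 483, 34 and 135 in knockout hearts and 57, 99 and 19 in wild-type hearts. Top2a, the topoisomerase that untangles sister DNA (ENSMUSG00000020914, chromosome 11, 98992943 to 99024189), had 8.56, 0.930 and 2.67 CPM in the knockout hearts, against 1.42, 1.15 and 0.269 CPM in the wild-type hearts. For both genes the order was knockout heart 1, then knockout heart 3, with wild-type heart 3 lowest, and knockout heart 2 lay within the wild-type range. The log2 fold changes were 1.68 (SE 0.83, 95% interval -0.26 to 3.62) for Mki67 and 2.11 (SE 0.85, 95% interval 0.12 to 4.10) for Top2a. Ccna2, cyclin A2, had 4.76, 1.10 and 1.28 CPM in the knockout hearts, against 1.33, 0.932 and 0.388 CPM in the wild-type hearts, and its log2 fold change was 1.45 (SE 0.67).

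In genes of the spindle and of cell division knockout heart 1 was again the highest. Prc1, which crosslinks the central spindle, had 4.85, 0.517 and 1.15 CPM in the knockout hearts, against 0.981, 0.612 and 0.358 CPM in the wild-type hearts. Kif23, a motor of the central spindle, had 3.10, 0.379 and 1.15 CPM in the knockout hearts, against 0.665, 0.479 and 0.597 CPM in the wild-type hearts. Kif20a, a kinesin of cytokinesis, had 3.17, 0.793 and 1.62 CPM in the knockout hearts, against 1.55, 1.70 and 1.13 CPM in the wild-type hearts. In all 3 genes knockout heart 2 lay within or below the wild-type range, and knockout heart 3 was above it in Prc1 and Kif23. Without knockout heart 1 the knockout mean of Prc1 was 1.28 times the wild-type mean, that of Kif23 1.32 times and that of Kif20a 0.826 times. Tpx2, which builds spindle microtubules and activates Aurora A, had 3.43, 0.413 and 1.54 CPM in the knockout hearts, against 0.791, 0.879 and 0.567 CPM in the wild-type hearts. Kif11, the motor that separates the spindle poles, had 3.57, 0.482 and 1.20 CPM in the knockout hearts, against 1.14, 0.746 and 0.478 CPM in the wild-type hearts. Nusap1, a protein bound to spindle microtubules, had 2.64, 0.965 and 1.15 CPM in the knockout hearts, against 1.33, 1.09 and 0.716 CPM in the wild-type hearts. Knockout heart 3 was above the wild-type range in Tpx2 and Kif11, inside it in Nusap1, and knockout heart 2 lay within or below it in all 3. The log2 fold changes were 1.76, 1.44, 0.36, 1.28, 1.18 and 0.61 for these 6 genes in the order named, with standard errors of 0.44 to 0.81.

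Bub1b, a spindle checkpoint protein, had 2.80, 0.482 and 1.31 CPM in the knockout hearts, against 0.886, 1.22 and 0.537 CPM in the wild-type hearts, and Cdc20, the activator of the anaphase promoting complex that the checkpoint holds back, had 2.92, 1.03 and 0.890 CPM in the knockout hearts, against 1.23, 1.22 and 1.25 CPM in the wild-type hearts. Knockout hearts 2 and 3 were below all 3 wild-type hearts for Cdc20, while knockout heart 1 was above them. Cenpf, a large protein of the kinetochore and nuclear envelope, did not follow the other mitosis genes. It had 27.1, 17.7 and 38.3 CPM in the knockout hearts, against 22.5, 13.8 and 17.1 CPM in the wild-type hearts, the highest mean level per length of the mitosis group at 1.48 RPKM. Knockout heart 3 was its highest heart, knockout heart 2 lay among the wild-type hearts, and the log2 fold change was 0.64 (SE 0.30, 95% interval -0.070 to 1.35). Mean levels of the other tested mitosis genes lay between 0.0716 RPKM, for the kinetochore motor Cenpe, and 0.763 RPKM, for Cdc20.

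Of the remaining 9 tested mitosis genes (Ccnb1, Ccnb2, Cdk1, Aurka, Aurkb, Plk1, Cenpe, Ube2c and Birc5), each was highest in knockout heart 1, at 1.54 to 2.82 CPM, and lay between 0.0298 and 0.896 CPM in the other 5 hearts. They encode the B cyclins and Cdk1, which start mitosis, the Aurora and Polo kinases, a kinetochore motor, the ubiquitin-conjugating enzyme of the anaphase promoting complex and survivin. Log2 fold changes ran from 0.80 for Ube2c to 1.91 for Aurkb, with standard errors of 0.52 to 0.91. Without knockout heart 1 they ran from -0.63 for Ube2c to 0.98 for Aurkb, and those of Ube2c and Cenpe, at -0.23, turned direction. Counts were small: Plk1 had 66, 7 and 15 reads in knockout hearts and 8, 14 and 1 in wild-type hearts. Birc5, survivin, a part of the chromosomal passenger complex (ENSMUSG00000017716, chromosome 11, 117849251 to 117855743), is given by heart because its groups did not overlap, a choice made after its values were seen. It had 1.56, 0.379 and 0.681 CPM in the knockout hearts, against 0.316, 0.320 and 0.179 CPM in the wild-type hearts. Knockout heart 2, with 11 reads, was just above wild-type heart 2, with 12 reads in a deeper library, and the log2 fold change was 1.70 (SE 0.58, 95% interval 0.35 to 3.05). Bub1, which was not tested, held 52, 5 and 15 reads in knockout hearts, against 5, 2 and 4 in wild-type hearts.

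**Figure D2:**
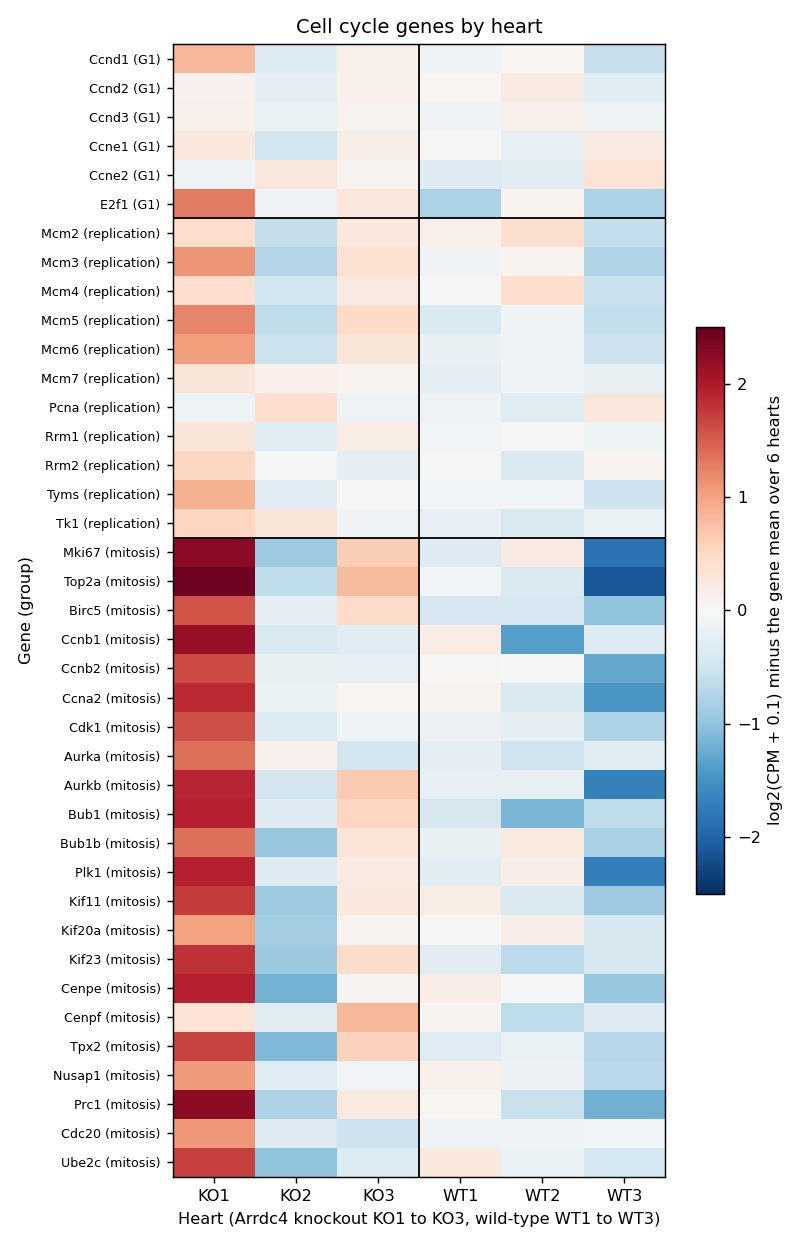
Level of each of the 39 members (rows, with their group) in each heart (columns, knockout left of the line and wild-type right), as log2(CPM + 0.1) minus the mean of the gene over the 6 hearts. Knockout heart 1 is high for nearly all mitosis genes, knockout heart 2 and wild-type heart 3 are mostly low, and the G1 rows other than E2f1 are pale.

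The values by heart set knockout heart 1 apart from the other 5. Knockout heart 1 held the top value for 34 of 38 tested members, beside 21.6% of all genes tested. The 4 exceptions were Ccnd2, highest in wild-type heart 2, Ccne2, highest in wild-type heart 3, Pcna, highest in knockout heart 2, and Cenpf, highest in knockout heart 3. Knockout heart 1 exceeded each of the other 5 hearts more than 2-fold for 18 of 21 mitosis genes, 0 of 11 replication genes and 1 of 6 G1 genes, beside 0.648% of all genes. Wild-type heart 3 was the lowest heart for 17 members and knockout heart 2 for 11, beside 22.3% and 20.4% of all genes. Inside the knockout group the highest heart exceeded the lowest by a median of 5.67-fold for mitosis genes, 1.87-fold for replication genes and 1.51-fold for G1 genes, and inside the wild-type group by 2.21-fold, 1.40-fold and 1.48-fold. Over all genes tested these medians were 1.48-fold in knockout hearts and 1.40-fold in wild-type hearts.

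Set against the wild-type mean, knockout heart 1 stood at a median of 4.60 times for mitosis genes (range 1.52 to 9.05), 1.55 times for replication genes and 1.15 times for G1 genes. The mean of knockout hearts 2 and 3 stood at 1.15, 1.10 and 1.03 times the wild-type mean for mitosis, replication and G1 genes. These knockout hearts did not move together: knockout heart 3 lay above all 3 wild-type hearts for 21 of 38 members, beside 25.3% of all genes, and knockout heart 2 for 5, beside 25.5%. That heart lay below all wild-type hearts for 12 members, beside 24% of all genes. In the fit without knockout heart 1, 28 of 38 members were positive, their median log2 fold change was 0.15 against 0.74 with all 6 hearts, and 0.271% of all genes had an unadjusted p under 0.05 and a higher value. In the fit without knockout heart 2, 22 of 39 members had an unadjusted p under 0.05, all higher, beside 5.22% of all genes, and the median was 1.19. Bub1, which the main filter had removed, was among these 22. The smallest adjusted p of a member in that fit was 0.613 in edgeR.

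Markers of several other cell types were highest in the same heart. Summed over the list, 12 epicardial and mesothelial markers gave 44.5, 8.68 and 25.1 CPM in the knockout hearts, against 17.5, 11.5 and 10.3 CPM in the wild-type hearts, and all 12 were highest in knockout heart 1. The 11 macrophage and monocyte markers summed to 252, 85.4 and 146 CPM in knockout hearts, against 139, 184 and 108 CPM in wild-type hearts, with 9 of 10 tested highest in knockout heart 1. The 12 fibroblast markers summed to 2307, 1009 and 2031 CPM in knockout hearts, against 1394, 1823 and 1253 CPM in wild-type hearts, with 8 of 12 highest in that heart. For the 10 endothelial markers the sums were 947, 423 and 758 CPM in knockout hearts, against 617, 862 and 450.4 CPM in wild-type hearts. In these 4 lists knockout heart 1 had the highest sum and knockout heart 2 the lowest. Smooth muscle and pericyte markers had a narrower range, 1189, 979 and 1119 CPM in knockout hearts, against 1052, 1066 and 1097 CPM in wild-type hearts.

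Markers of blood-forming and lymphoid cells, which divide often, gave other orders of the hearts. The 6 thymocyte markers summed to 1.35, 1.07 and 1.75 CPM in knockout hearts and 3.10, 1.68 and 3.43 CPM in wild-type hearts, and 1 of 6 passed the filter on low counts. The 9 markers of neutrophils and their marrow precursors summed to 1.28, 3.89 and 0.419 CPM in knockout hearts and 0.886, 2.53 and 1.49 CPM in wild-type hearts, with 2 of 9 past the filter and 1 at 0 counts in all hearts. The 10 lymphocyte markers gave 12.7, 9.23 and 7.28 CPM in knockout hearts and 11.6, 5.65 and 7.34 CPM in wild-type hearts, so that knockout heart 1 was just above wild-type heart 1. Of these 10 markers, 6 passed the filter. The 8 erythroid precursor markers gave 90.6, 66.7 and 87.8 CPM in knockout hearts and 95.9, 46.3 and 153 CPM in wild-type hearts, highest in wild-type heart 3. Of these 8 markers, 3 passed the filter. Schwann and glial markers, 6 genes, gave 7.77, 2.48 and 9.66 CPM in knockout hearts and 5.60, 3.78 and 4.69 CPM in wild-type hearts. The part of epicardial, macrophage, fibroblast, endothelial and smooth muscle RNA in the cell cycle values was not tested.

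**Figure D3:**
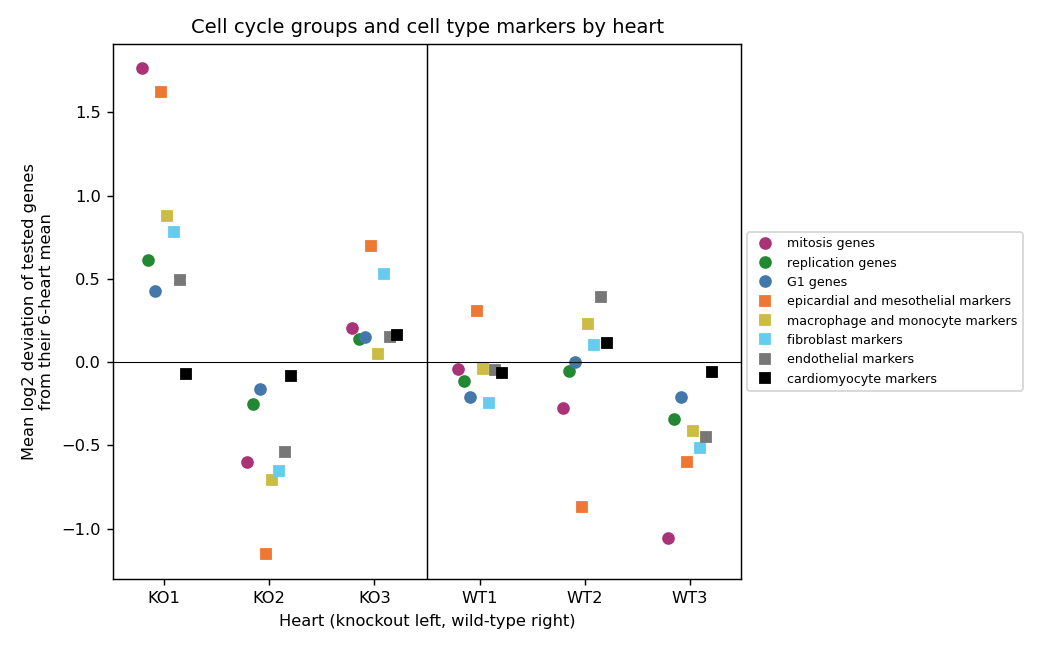
Mean over tested genes of the log2 level minus the gene's mean over 6 hearts (y axis), for the 3 cell cycle groups (circles) and 5 marker lists (squares) in each heart (x axis, knockout left and wild-type right). In knockout heart 1 the mitosis genes stand at 1.76 and the epicardial and mesothelial markers at 1.62, and the cardiomyocyte markers stay between -0.081 and 0.16 in all 6 hearts.

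Y-linked reads were present in 1 of 3 knockout hearts and 2 of 3 wild-type hearts, so the members were also compared among hearts with and among hearts without Y-linked reads, a split chosen with the data in view. Among hearts with Y-linked reads, knockout heart 1 lay above both wild-type hearts 1 and 2 for 21 of 21 mitosis, 10 of 11 replication and 5 of 6 G1 genes, beside 34.8% of all genes tested. The median log2 ratio was 2.0 for mitosis, 0.74 for replication and 0.27 for G1 genes. Among hearts without Y-linked reads, knockout hearts 2 and 3 both lay above wild-type heart 3 for 12 of 21 mitosis, 6 of 11 replication and 3 of 6 G1 genes, beside 29.3% of all genes, with median log2 ratios of 0.60, 0.40 and 0.15. Each of these sets rests on a lone heart of 1 genotype. Knockout heart 2 alone, set against wild-type heart 3, which it most resembled over all genes, gave medians of 0.42 for mitosis, 0.020 for replication and 0.0032 for G1 genes.

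**Figure D4:**
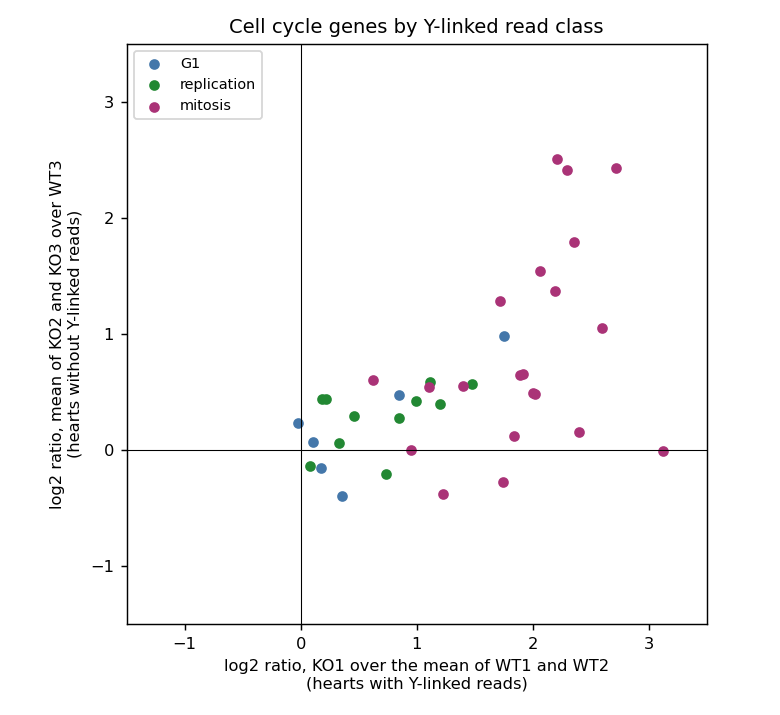
Log2 ratio of each tested member among hearts with Y-linked reads (x axis, knockout heart 1 over the mean of wild-type hearts 1 and 2) and among hearts without them (y axis, the mean of knockout hearts 2 and 3 over wild-type heart 3), coloured by group. Mitosis genes have medians of 2.0 on the x axis and 0.60 on the y axis, and no heart is shared between the axes.

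The split was also fitted over all genes. With a term for Y-linked reads in the fit of all 6 hearts, 25 of 38 members had an unadjusted p under 0.05, all higher, beside 2.79% of all genes, and 0 passed the adjusted threshold, beside 0% of all genes, the smallest adjusted p being 0.854 in edgeR. Among the 3 hearts with Y-linked reads alone, 5 of 39 members were called higher in edgeR, beside 0.138% of all genes. These were Top2a (adjusted p = 0.00381), Mki67 (0.00829), Prc1 (0.0226), Kif23 (0.0428) and Ccna2 (0.0453), with log2 fold changes of 2.06 to 2.72. That fit holds 1 knockout heart, which is assumed to vary as the 2 wild-type hearts do, and so compares knockout heart 1 and not the genotype. Among the 3 hearts without Y-linked reads 0 of 39 members were called higher and 5 had an unadjusted p under 0.05, all higher, beside 0.0198% and 0.859% of all genes.

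Other genes of the cycle were read from 9 lists, 133 genes in all, of which 121 were tested and 0 passed in either direction (1.0 being the smallest adjusted p in edgeR). Fitted values were higher in knockout for 83 and lower for 38, 3 had an unadjusted p under 0.05, and knockout heart 1 was the highest for 44. Over all genes tested, 52.3% of fitted values were higher in knockout, 0.751% of genes were higher and 0.482% lower at an unadjusted p under 0.05, and 21.6% were highest in knockout heart 1. The 3 genes at an unadjusted p under 0.05, Hmmr, Ect2 and Cdc7, were all higher. The median log2 fold change was highest for cytokinesis and spindle motors, at 1.06 over 10 tested genes, all with higher fitted values, and for kinetochore and checkpoint genes, at 0.41 over 14, of which 11 were higher. Named by the smallest p in each list were Hmmr, a spindle protein, and Ect2, which starts the cleavage furrow, at 1.74 (SE 0.64) and 1.67 (SE 0.66), and the outer kinetochore genes Ndc80 and Nuf2, at 1.24 (SE 0.55) and 1.74 (SE 0.80). Knockout heart 1 raised these values: without it the log2 fold change was 0.88 for Hmmr, 0.64 for Ect2, 0.52 for Ndc80 and 0.69 for Nuf2. In the condensin and cohesin list the median was 0.13 over 12 genes, with the condensin subunits Ncaph at 0.82 (SE 0.66) and Smc2 at 0.44 (SE 0.38). Without knockout heart 1 Ncaph was at -0.17, which turns its direction, and Smc2 at 0.10.

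Lists of replication genes outside the members had medians close to that of all genes. Polymerase and fork genes had a median of 0.071 over 23 tested, 16 of them higher, with Uhrf1, which carries DNA methylation through replication, at 1.25 (SE 0.70) and the DNA ligase Lig1 at 0.68 (SE 0.40). Origin licensing and firing genes had a median of 0.068 over 15, 9 higher, with the origin kinase Cdc7 at 0.80 (SE 0.31) and the helicase loader Cdc6 at 0.89 (SE 0.48). Cdc7 had 0.886, 0.620 and 0.681 CPM in the knockout hearts, against 0.380, 0.373 and 0.507 CPM in the wild-type hearts, without overlap between genotypes. Retinoblastoma family, E2F and DREAM complex genes split into 10 higher and 7 lower (median 0.024), with E2f8 at 0.67 (SE 0.39) and E2f2 at 0.76 (SE 0.47). Genes of the anaphase promoting complex and mitotic exit split into 9 and 6 (median 0.0068), with separase, Espl1, at 0.62 (SE 0.40) and the inhibitor Fbxo5 at 0.42 (SE 0.37). The other CDKs and their activators split into 4 and 4 (median 0.022), with the phosphatase Cdc25b at 0.58 (SE 0.40) and Cdk2 at 0.12 (SE 0.16). Without knockout heart 1 the values were 0.27 for Uhrf1, 0.32 for Lig1, 0.63 for Cdc7, 0.39 for Cdc6 and 0.32 for E2f8. They were 0.29 for E2f2, 0.21 for Espl1, 0.10 for Fbxo5 and 0.28 for Cdc25b. Each of these was smaller than with all 6 hearts. Cdk2 differed, since knockout heart 1 was its lowest heart, at 7.25 CPM. The Cdk2 mean of knockout hearts 2 and 3 was 1.17 times the wild-type mean.

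The CDK inhibitors, which hold the cycle back, had higher fitted values in knockout for 3 of 7 and lower for 4, with a median of -0.032. Cdkn1a, p21, had 27.5, 31.6 and 12.1 CPM in the knockout hearts, against 28.1, 26.2 and 76.6 CPM in the wild-type hearts. Wild-type heart 3, the lowest heart for 11 of 21 mitosis genes, had the highest Cdkn1a value, and the other 5 hearts overlapped. Knockout heart 3 had the lowest Cdkn1a value, and knockout heart 1, the highest for 20 of 21 mitosis genes, lay in between. A relation of Cdkn1a to the mitosis genes was not tested. The log2 fold change was -0.88 (SE 0.51, 95% interval -2.07 to 0.31), and -0.20 without wild-type heart 3. Cdkn1c, p57, had 13.8, 16.4 and 15.1 CPM in the knockout hearts, against 15.5, 16.6 and 18.1 CPM in the wild-type hearts and a log2 fold change of -0.15 (SE 0.14). Foxm1, named as the factor of mitosis genes after its values were seen, had 2.38, 0.276 and 0.812 CPM in the knockout hearts, against 0.601, 0.799 and 0.209 CPM in the wild-type hearts, so that knockout heart 1 was again the highest. Its log2 fold change was 1.12 (SE 0.77), and 0.045 without that heart.

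Some member counts may hold reads of other genes, since no source used here gives the strand setting of the counting. Exons of 14 members overlap exons of another gene in GENCODE M21, 13 of them on the opposite strand. The overlap is 1271 bases between Kif20a and Cdc23, a gene at 28 to 33.9 CPM in these hearts, and 1100 bases between Ccnd1 and its neighbour LTO1. It is 911 bases for Prc1 with Rccd1, 740 for Ccnd2 with Gm43126 and 9330179D12Rik, and 609 for Ccne2 with Ints8. It is 592 bases for Ube2c with Tnnc2 and 510 for Ccna2 with Exosc9. Among the members higher in every knockout heart, Mcm7 overlaps Cops6 and Ap4m1 by 385 bases on the opposite strand. It also overlaps Mir25 and Mir93 by 172 bases on its own strand. Tk1 overlaps Afmid by 83 bases on the opposite strand, and Birc5 has no such overlap. Tnnc2 was at 0 to 0.0689 CPM in these hearts, below the floor of 3 counts. Processed copies named for members held few reads, 0 to 7 per heart for those of Pcna, Ccnb1 and Ccnd3, but Ccnb2-ps held 34 to 37 reads in each heart, beside 95, 16 and 21 reads of Ccnb2 in knockout hearts and 21, 24 and 7 in wild-type hearts. The share of Ccnb2 reads that may have been counted to the copy, or the reverse, was not tested.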

How the data were processed

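RNA from 3 Arrdc4 knockout and 3 wild-type mouse hearts was purified on Qiagen columns and made into NEBNext Ultra II libraries, per the labels' protocols. The authors' deposited values are raw counts, whole numbers for each Ensembl gene in each heart. The submitters' processing notes name GRCm38.p6, STAR, featureCounts, Subread 1.5.2 and DESeq2, with no roles. Annotation release, strand setting and the treatment of multiply matching reads: not given in the sources used here.

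Of 49315 identifiers, 48970 matched a symbol. Rows without one took 0.0147% to 0.0173% of counts. Genes were kept by filterByExpr (minimum count 10, minimum total 15), scaled by TMM and tested with edgeR 4.0.16 in R 4.3.3 (glmQLFit, glmQLFTest; Benjamini-Hochberg over 14508 genes, threshold 0.05). Standard errors and 95% intervals were set to match the test's p. The biological coefficient of variation was 24.2%. Log2 levels by heart used counts plus 1. RPKM used merged exons of GENCODE M21 (GRCm38), whose coordinates are printed. DESeq2 1.42.0 and limma 3.58.1 were alternatives, beside other scalings and filters, each heart left out, a replicate block and a term for Y-linked reads (over 5 CPM). The fit was tested on simulated data.

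The rule for named genes gave values by heart for G1 and replication genes and the 12 most abundant mitosis genes, ranges for the other members, and the 2 genes of smallest p from each other list. Values by heart of Birc5, Plk1, Ccnb2, Bub1 and Foxm1 were added after they were seen. The members, lists and tests were chosen with earlier results of these data known. P-values measure the spread between these samples, which may be technical.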

Additional observations from a re-analysis of the deposited data

Results flagged for a closer look

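In 4 members the knockout hearts lay on opposite sides of the wild-type hearts in the hearts with and without Y-linked reads: knockout heart 1 was above wild-type hearts 1 and 2, and knockout hearts 2 and 3 were both below wild-type heart 3. These are 10.5% of the 38 tested members. Over all genes tested, 6.47% showed this pattern and 6.73% the opposite one, 13.2% in all, so the members' share is near the background and no result about the members. The log2 ratio with Y-linked reads was 1.22 for Cdc20, and without them -0.38, a gap of 1.60. The gap was 0.95 for Rrm2 (log2 ratios of 0.74 with and -0.21 without Y-linked reads), 0.75 for Ccne1 (0.36 and -0.40) and 0.33 for Ccne2 (0.18 and -0.15). The difference between the sets of hearts was not tested, and each set holds a lone heart of 1 genotype.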

How the results depend on the processing

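Over 15 alternatives, listed with earlier results of these data known, no member was called. Among them, the removal of wild-type replicate 3 with knockout replicate 2 and the term for Y-linked reads rest on patterns seen in these data. Of 1046 values recomputed under 17 alternatives 992 were counted as unchanged. Of these, 915 were log2 fold changes of single genes that kept direction and side of the threshold. The other 77 were group medians and numbers of genes or members called, under a looser rule. A median counted as unchanged when it shifted by less than the pooled SD of its group, 0.93 for mitosis genes. A number called had to be equal or close. Leaving out each heart gave a mitosis median of 0.20 to 1.73 (lowest without knockout replicate 1) and 0 to 1 genes called. Arrdc4 missed the threshold without knockout replicate 3 and under the replicate block, at adjusted p-values of 0.0519 and 0.0507 in edgeR (log2 fold changes of -6.75 and -7.0). With wild-type replicate 3 and knockout replicate 2 left out 2 genes were called (Spp1 and Arrdc4). Added after the data were seen, hearts with Y-linked reads alone gave 25 genes and 5 members called and a replication median of 0.72, and hearts without them 4 genes called. Members with an unadjusted p under 0.05 numbered 6, against 18 of 39 with no filter on low counts, 3 of 26 at 1 CPM in 3 samples, 11 in DESeq2, 2 in limma-voom and 15 of 39 without wild-type replicate 3 and knockout replicate 2; the cause was not tested.

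The sign turned in 13 members and 2 genes of other lists. Ccnd2 was at -0.0087 with DESeq2 size factors, -0.0099 in DESeq2, -0.026 without wild-type replicate 3 and knockout replicate 2 and -0.048 in hearts with Y-linked reads. Ccne1 was at 0.034 with library size alone, 0.015 with no filter, 0.0009 at 1 CPM in 3 samples, 0.30 without wild-type replicate 3 and knockout replicate 2, 0.014 with a Y-linked term and 0.35 in hearts with Y-linked reads. Pcna was at -0.016 with that term and -0.12 in hearts without Y-linked reads, where Ccne2 was at -0.16, Rrm2 at -0.21, Cdc20 at -0.39, Ube2c at -0.22 and Ccnb1 at -0.014, against 0.80 for Ube2c and 1.70 for Ccnb1 with all hearts. Cdk2 was at -0.0975 in hearts with Y-linked reads. Leaving out 1 heart gave -0.12 to 0.11 for Ccnd2, -0.015 to 0.12 for Ccnd3, -0.15 to 0.19 for Ccne1, -0.17 to 0.33 for Mcm2, -0.11 to 0.37 for Mcm4, -0.11 to 0.28 for Pcna, -0.018 to 0.40 for Rrm2, -0.26 to 0.71 for Kif20a, -0.37 to 0.69 for Cdc20, -0.63 to 1.22 for Ube2c, -0.23 to 1.73 for Cenpe and -0.17 to 1.23 for Ncaph.

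The replicate numbers did not pair the hearts: deviations of same-numbered hearts correlated at 0.18, -0.63 and -0.38 across genes. With the replicate block 0 genes were called, 0 members were called and the mitosis median was 0.95. The intervals of 0 of 21 mitosis genes excluded a 2-fold difference.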
